A study of Homo sapiens with 18 samples.

Results

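JADE2, KAT2A and CHD3 encode subunits of chromatin complexes that write or remove histone acetylation. This account follows their messenger RNA in U937 cells treated with drugs that act on chromatin. They were chosen by symbol because their levels differed between treatments in these arrays, so their levels are given as a description, without a test. They are 3 of 14884 named genes on the arrays, each measured by 1 probe set: 16989265 for JADE2, 16845019 for KAT2A and 16830789 for CHD3. U937 is an established human monocytic line that was derived from a histiocytic lymphoma. There were 6 groups of 3 arrays: an untreated control, each of the drugs decitabine, panobinostat and valproic acid by itself, and decitabine joined with either of the others, called here the panobinostat combination and the valproic acid combination. All groups shared the same RPMI medium with serum and antibiotics. Decitabine, a cytosine analogue that lowers DNA methylation, was given as 3 pulses of 24 h. The inhibitors of histone deacetylases panobinostat and valproic acid acted for 24 h, in the combinations together with the last pulse. In the labels decitabine carries the number 50, panobinostat 8 and valproic acid 1, with no unit, so panobinostat and valproic acid cannot be called matched in dose. The origin of the 3 arrays of a group in separate cultures is not stated. The p-values given below therefore refer to the spread among arrays, which could be technical.

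Histone acetyltransferases attach acetyl groups to lysines of histone tails, deacetylases remove them, and both act as parts of large complexes. JADE2 is a scaffold protein with PHD fingers, zinc-binding folds that read histone tails. It belongs to the complex of the acetyltransferase KAT7 (HBO1), together with ING proteins and MEAF6. KAT2A, also called GCN5, is the catalytic subunit of the acetyltransferase complexes SAGA and ATAC. CHD3, also called Mi-2 alpha, is an ATPase that moves nucleosomes within NuRD, a complex that also holds the deacetylases HDAC1 and HDAC2, which are targets of panobinostat and valproic acid.

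The log2 signals ran from 2.29 to 14.57, and the median of an array lay between 3.81 and 3.87. Precision is limited by the number of arrays. Over all genes, 2 arrays of 1 group correlated at 0.985 or more, and those from 2 groups at 0.961 or more. Of 11 myeloid markers 7 were on named probe sets. In the controls MPO stood at 12.28, TYROBP at 7.83 and LYZ at 7.33, while CD14, a marker of mature monocytes, lay at 3.45, below the median of all values of 3.84. The mean over the 7 myeloid markers was 7.1 in the controls and 8.32 after decitabine. It was 7.52 after panobinostat and 7.19 after valproic acid, and reached 8.01 in the panobinostat combination and 8.04 in the other. These means join markers that went in opposite directions. In the panobinostat combination SPI1 was lower than in control (6.12 against 6.97), as was MPO (11.35 against 12.28), while CD68, TYROBP, LYZ and CSF1R were higher, at 9.14, 10.2, 9.57 and 6.35 against 7.53, 7.83, 7.33 and 4.34. CD2, the 1 measured T cell marker of 3, went from 3.96 in control to 5.85 and 6.01 in the combinations. Of 3 epithelial markers 2 were measured and went apart: in the panobinostat combination EPCAM stood at 4.45 against 3.72 in control, and KRT5 at 3.19 against 3.17. The stromal gene DCN stayed between 3.31 and 3.41 on group average. The part of these shifts in the results below was not tested. In a bulk sample, fewer cells of a type and less RNA per cell cannot be told apart. Single arrays stood apart in part: over the 2524 genes that differed from control in the valproic acid combination, replicate 1 of that group was the array nearest to the control mean for 56.4%, and over the 1112 genes of valproic acid alone, replicate 2 was nearest for 52.6%. The changes of the 3 genes and the partner genes called in these groups are given below also without these arrays.

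The sequences before the start sites are shown because the 3 genes were lower in the same groups and because decitabine lowers methylation of CpG. Methylation was not measured on these arrays, and the part of these sequences in the changes was not tested. RefSeq (GRCh38.p14) lists JADE2 on the plus strand at chr5:134524009-134583227, KAT2A on the minus strand at chr17:42113111-42121367 and CHD3 on the plus strand at chr17:7884796-7912755. In the table of promoter windows used here JADE2 has 6 start sites, KAT2A 1 and CHD3 1. The 250 bases before a start were searched on both strands for the E-box CACGTG, the GC box GGGCGG, the CCAAT box, the TATA box spelled TATAAA, the NRF1 core TGCGCA and the ETS core CCGGAA. Capitals mark the matches, which do not overlap in the sequences printed:
JADE2, before the first listed start, chr5:134523759-134524008, plus strand: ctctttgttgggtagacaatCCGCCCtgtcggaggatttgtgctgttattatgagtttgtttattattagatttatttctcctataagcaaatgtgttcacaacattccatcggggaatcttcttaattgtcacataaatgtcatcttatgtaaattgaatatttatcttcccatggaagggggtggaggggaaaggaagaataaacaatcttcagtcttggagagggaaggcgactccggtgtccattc
JADE2, E-box before the second start, chr5:134524007-134524036, plus strand: tcacaactcaccCACGTGccttcaaagcca
JADE2, E-box before the last start, chr5:134526566-134526595, plus strand: tcgcgctgggctCACGTGcagccggtccgg
KAT2A, chr17:42121368-42121617, minus strand: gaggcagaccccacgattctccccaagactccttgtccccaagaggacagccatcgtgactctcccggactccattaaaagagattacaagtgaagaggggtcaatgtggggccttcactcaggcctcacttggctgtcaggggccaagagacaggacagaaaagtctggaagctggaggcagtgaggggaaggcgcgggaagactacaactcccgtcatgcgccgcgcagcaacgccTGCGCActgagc
CHD3, chr17:7888539-7888788, plus strand: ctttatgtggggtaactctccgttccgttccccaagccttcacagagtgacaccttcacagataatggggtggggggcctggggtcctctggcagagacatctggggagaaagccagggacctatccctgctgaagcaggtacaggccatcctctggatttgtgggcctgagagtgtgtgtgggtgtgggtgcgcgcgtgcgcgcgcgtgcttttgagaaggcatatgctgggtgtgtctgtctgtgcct
The JADE2 windows went from AT-rich to CpG-rich along the gene. The window before the first start held 5 CpG at a GC content of 39.6%, the one before the last start 29 CpG at 71.6%, against a median of 11 CpG and 58% over 35116 windows. The KAT2A window held 11 CpG and the CHD3 window 9, both near that median. An E-box was found 36 bases before the second JADE2 start and 54 bases before the last, and in 6.34% of all windows. JADE2 had 6 windows to search, and KAT2A and CHD3 1 each, so JADE2 had more chances of a match. The KAT2A window held 1 NRF1 core, found in 6.89% of all windows, and the CHD3 window, which lies inside the annotated gene, none of the motifs. JADE2 windows that are not printed in full held further matches. In order along the gene, window 4 held 3 GC boxes, and window 5, with 32 CpG, held 1 GC box and 1 NRF1 core. Window 6, before the last start, held 2 GC boxes and 1 ETS core beside its E-box. The GC box, marked in the JADE2 window that is printed in full, is common, at 42.6% of all windows, as are the CCAAT box at 32%, the ETS core at 14.5% and TATAAA at 10.7%. A match is a description of the letters, not a binding site.

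JADE2 had the widest span of the 3 genes between groups, 3.01 on the log2 scale, from the controls down to the combinations. Its log2 levels were 7.96, 7.98 and 8.04 in the controls and 7.43, 7.51 and 7.51 with decitabine. The inhibitors alone gave 6.95, 6.12 and 6.63 with panobinostat and 5.79, 6.54 and 6.42 with valproic acid. The combinations gave 4.94, 5.12 and 4.89 with panobinostat and 5.24, 4.82 and 4.90 with valproic acid. All arrays of each treatment thus lay below all controls, and all 6 arrays of the combinations below every other array. The arrays of the single inhibitors differed more among themselves (SD 0.42 and 0.40) than those of any other group.

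Against control, JADE2 differed by -0.51 (SE 0.20, from limma, n = 3 per group) with decitabine, -1.43 with panobinostat and -1.74 with valproic acid. In both combinations it differed by -3.01 (SE 0.20), an 8.05-fold lower signal with panobinostat and an 8.06-fold lower one with valproic acid. These were the lowest changes of all 14884 genes in both comparisons (rank 1), while with valproic acid alone it ranked 2, with panobinostat 16 and with decitabine 632. Without replicate 1 of the valproic acid combination the change was -3.14, and without replicate 2 of valproic acid alone it was -1.89. When any 1 array was left out, these changes ran from -3.14 to -2.93 and from -1.89 to -1.51. Each combination was also below its inhibitor alone, by -1.58 for panobinostat and -1.27 for valproic acid, with no overlap between arrays (12.4% and 10.2% of all genes were lower in this way). In order of level, the combinations came lowest and overlapped each other, valproic acid and panobinostat came next and overlapped each other, and decitabine and control followed without overlap.

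**Figure D1:**
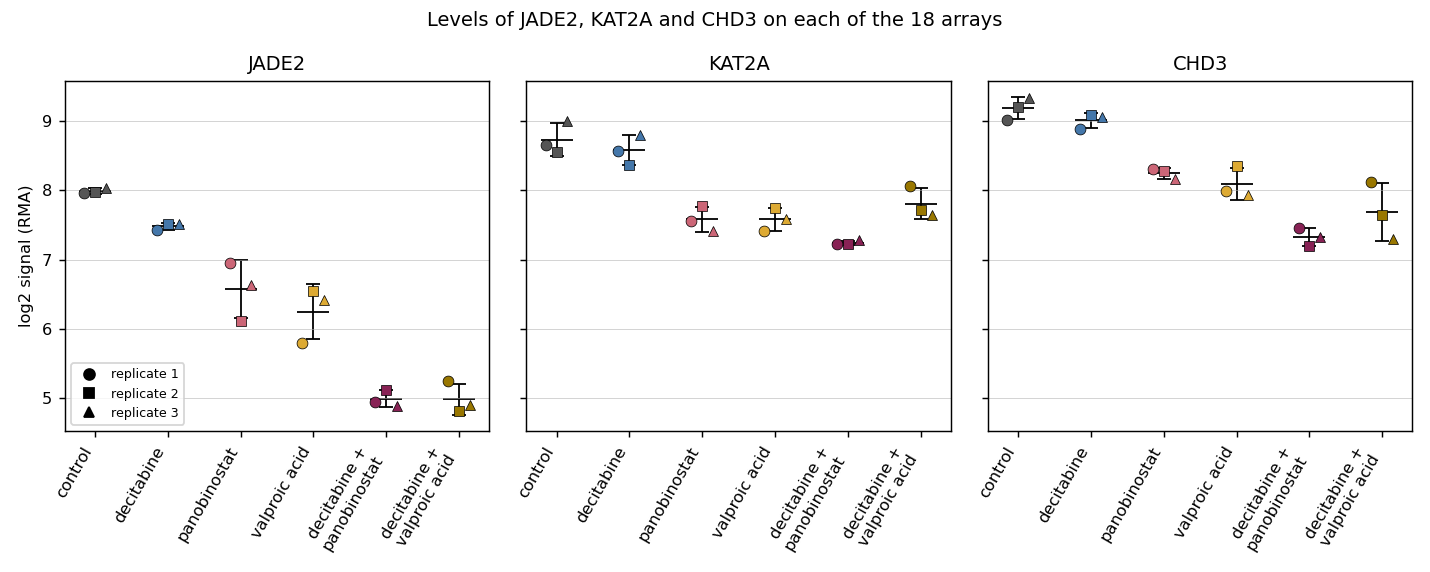
Log2 signal (vertical axis) of JADE2, KAT2A and CHD3 on each of the 18 arrays by treatment group; symbols mark the replicate number, the long dash the group mean and the bars the SD of 3 arrays. JADE2 goes from about 7.99 in control to 4.99 and 4.98 in the combinations, and no array of an inhibitor reaches the controls for any of the 3 genes.

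KAT2A was lower in every group that held a deacetylase inhibitor, and its decitabine arrays overlapped the controls. Control arrays read 8.65, 8.55 and 9.0, and decitabine arrays 8.57, 8.36 and 8.80. With panobinostat the levels were 7.56, 7.78 and 7.41, and with valproic acid 7.42, 7.74 and 7.59. In the panobinostat combination they were 7.22, 7.22 and 7.28, the tightest group (SD 0.03), and in the valproic acid combination 8.07, 7.72 and 7.64. The arrays of the panobinostat combination were below all others, whereas those of the valproic acid combination overlapped both inhibitors alone.

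The change of KAT2A against control was -1.15 (SE 0.15) with panobinostat and -1.15 with valproic acid, a 2.22-fold lower signal for each. It was -1.50, or 2.82-fold lower, in the panobinostat combination, and -0.92, or 1.90-fold lower, in the valproic acid combination. With decitabine the change was -0.16, and it ran from -0.27 to -0.02 when 1 array was left out. Leaving out replicate 1 of the valproic acid combination gave -1.05 there, and leaving out replicate 2 of valproic acid alone gave -1.23 for that drug. When any 1 array was left out, these changes ran from -1.05 to -0.79 and from -1.24 to -1.02. The combinations differed by -0.57 (SE 0.15), lower with panobinostat and without overlap, which was the case for 8.01% of all genes. The inhibitors alone differed by 0.00 (SE 0.15).

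CHD3 followed the order of JADE2 more closely, over a narrower span of 1.85. Its levels were 9.02, 9.20 and 9.34 in the controls and 8.89, 9.09 and 9.06 with decitabine, which overlapped. Panobinostat gave 8.31, 8.28 and 8.16, and valproic acid 7.99, 8.35 and 7.93. The combination with panobinostat gave 7.46, 7.20 and 7.33, and the one with valproic acid 8.12, 7.64 and 7.30. The last group had the widest spread (SD 0.42), and its replicate 1 lay among the arrays of valproic acid alone.

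Against control CHD3 differed by -0.94 (SE 0.17) with panobinostat and -1.10 with valproic acid, by -1.85 or 3.62-fold in the panobinostat combination, and by -1.50 or 2.83-fold in the valproic acid combination. It ranked 36 and 23 from the lowest change in the combinations. Without replicate 1 of the valproic acid combination the change was -1.72, and without replicate 2 of valproic acid alone -1.23. When any 1 array was left out, these changes ran from -1.72 to -1.31 and from -1.23 to -1.02. With decitabine alone it was -0.18, and ran from -0.26 to -0.10 when 1 array was left out.

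All 3 genes were lower without overlap in each of the 4 groups with an inhibitor. Of all genes, 12.9% were lower in this way after panobinostat and 12% after valproic acid, 18.7% in the panobinostat combination and 16.2% in the valproic acid combination. With decitabine JADE2 alone of the 3 was lower without overlap, as were 11.2% of all genes. Since these levels chose the genes, nothing is read from the counts. The comparisons with control share the same 3 control arrays.

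The combinations were set beside the sum of the changes with their single agents, whose difference is the interaction on the log2 scale. For JADE2 the sum was -1.94 with panobinostat and -2.25 with valproic acid, and the observed -3.01 lay below both, by -1.07 (SE 0.28) and -0.76 (SE 0.28). When 1 array was left out, these differences ran from -1.29 to -0.88 and from -0.99 to -0.61. CHD3 was below the sum by -0.74 (SE 0.24) with panobinostat, and by -0.23 (SE 0.24) with valproic acid, where the value ran from -0.44 to -0.03. KAT2A differed from the sum by -0.19 (SE 0.22) with panobinostat, a value that ran from -0.32 to -0.08. With valproic acid KAT2A lay above the sum, by 0.38 (SE 0.22, from 0.25 to 0.50), and by 0.26 without replicate 1 of that combination. JADE2 and KAT2A therefore lay on opposite sides of the sum with valproic acid, as measured values that were not tested.

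**Figure D2:**
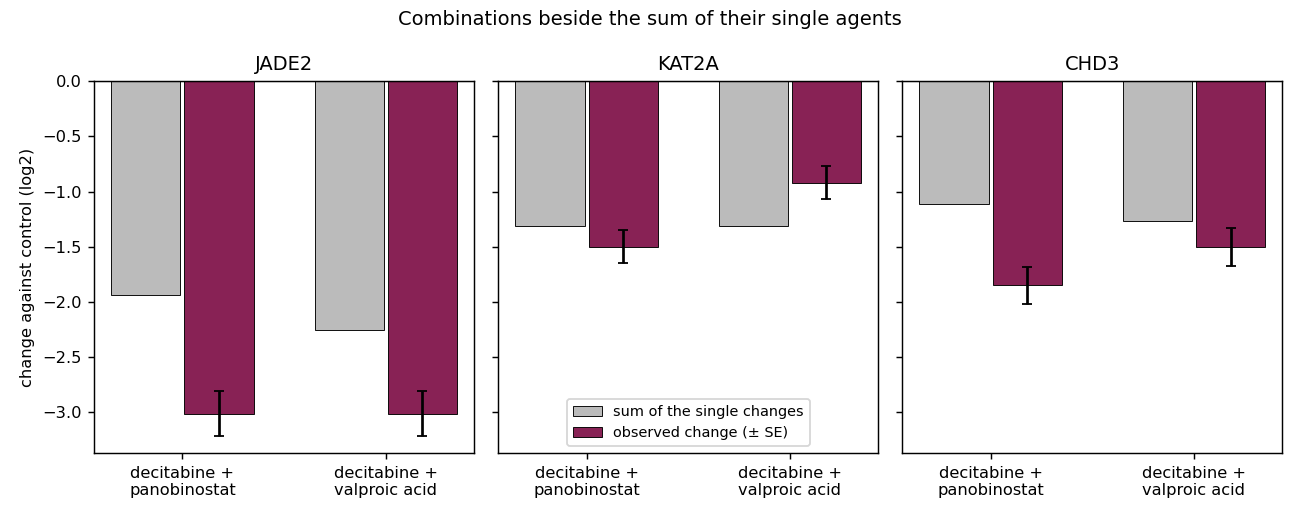
Change against control (log2, vertical axis) of each gene in both combinations; grey bars are the sum of the changes with the single agents, purple bars the observed change with its SE from limma. JADE2 reaches -3.01 against sums of -1.94 and -2.25, while KAT2A with valproic acid reaches -0.92 against a sum of -1.31.

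The closest relatives of the 3 genes were not used in choosing them and were tested in the fit over all genes, with Benjamini-Hochberg adjustment over the 14884. The lists that hold these relatives were chosen with earlier results of these data known. JADE1, which can take the place of JADE2 in the KAT7 complex, fell in the panobinostat combination, from 8.32, 8.52 and 8.47 in the controls to 7.38, 6.74 and 7.36. Its change was -1.27 (SE 0.24), at an adjusted p of 0.000964 in limma, which ran from 0.000228 to 0.00684 over the alternatives. In the valproic acid combination JADE1 read 8.27, 7.75 and 6.95, a change of -0.78 (adjusted p 0.0356) that depends on single arrays: it was -1.09 without replicate 1 of this group and -0.43 without its replicate 3. That call was lost in 8 of 16 alternatives (0.00243 to 0.182), among them without control replicate 1, 2 or 3 or replicate 2 or 3 of the treated group, after a second quantile normalization, in a fit of those arrays alone and with all probe sets tested. With the single agents JADE1 did not pass the test, with changes from -0.42 to -0.18. JADE3, the third member of the family, did not pass in any treatment. Its largest change was -0.49 in the panobinostat combination (95% interval -0.88 to -0.09, adjusted p 0.0715 in limma).

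KAT2B, also called PCAF, can replace KAT2A as the catalytic subunit of both of its complexes. KAT2B did not pass the test in any treatment, and all 5 of its changes were above 0. With panobinostat its level was 8.68, 9.15 and 8.79 against 8.66, 8.77 and 8.80 in the controls, a change of 0.13 (95% interval -0.16 to 0.42). With valproic acid the change was 0.39 (0.10 to 0.68, adjusted p 0.0997 in limma) and with decitabine 0.47 (0.18 to 0.76, adjusted p 0.0697 in limma). In the combinations KAT2B differed from control by 0.10 (-0.19 to 0.38) with panobinostat and by 0.18 (-0.11 to 0.47) with valproic acid, where KAT2A stood at -1.50 and -0.92.

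CHD4, the Mi-2 beta ATPase that alternates with CHD3 in NuRD, had changes between -0.18 and -0.04 in the 5 treatments. None passed the test, and the 95% intervals together reached from -0.43 to 0.20. In the panobinostat combination CHD4 read 10.63, 11.03 and 10.97 against 10.75, 10.95 and 11.05 in the controls, where CHD3 was lower by 1.85 on the log2 scale. CHD5, the neural member of this subfamily, lay between 3.43 and 3.62 on group average, below the median of all values.

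**Figure D3:**
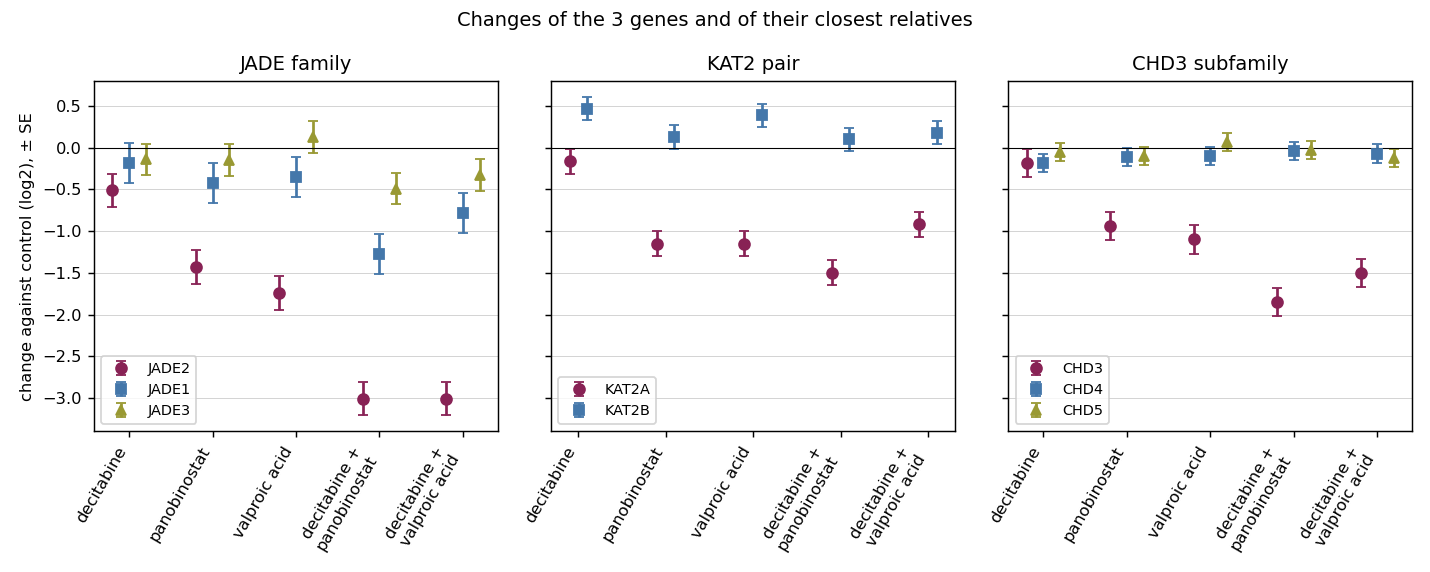
Change against control (log2, vertical axis, with SE from limma) of JADE2, KAT2A and CHD3 and of their relatives in the 5 treatments. JADE1 lies at -1.27 in the panobinostat combination and at -0.78 in the other, where it ran from -1.09 to -0.43 when 1 array was left out, while KAT2B stays above 0 and CHD4 between -0.18 and -0.04.

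The other genes of the complexes and families were taken from lists written from general knowledge: 73 genes, of which 48 were on named probe sets. The lists were chosen with earlier results of these data known. In the panobinostat combination 13 of the 48 fell and 3 rose, or 27.1% and 6.25%, against 12% and 11.2% of all genes tested. Their median change was -0.31, against -0.02 over all genes. In the valproic acid combination 10 fell and 2 rose (20.8% and 4.17%, against 8.06% and 8.9% of all genes), with a median of -0.21 against -0.02. Here and below, the shares are not matched for level. All genes include those at a low level, which have little room to fall, while most of the 48 stood well above the median of all values of 3.84. The part of level in these differences was not tested. Setting array medians over the named genes equal takes the median change of all genes to -0.191 and -0.177 in these comparisons. The splits then became 29 lower and 1 higher, and 19 lower and 1 higher, and over all genes 3325 lower and 1176 higher, and 2648 lower and 930 higher. After a second quantile normalization they were 11 lower and 4 higher in the panobinostat combination, and 10 lower and 3 higher in the other. Over all genes this gave 1670 lower and 1694 higher, and 1201 lower and 1325 higher. The single agents gave fewer calls: 3 lower and 2 higher with panobinostat (10.4% called, against 7.39% of all genes), 1 lower and 1 higher with valproic acid (4.17% against 7.47%), and 1 lower with decitabine (2.08% against 3.96%). With panobinostat the split became 7 lower and 1 higher with array medians set equal and 2 lower and 2 higher after a second quantile normalization, and with valproic acid 1 lower and 2 higher after the latter. In the same order, the splits over all genes were 753 lower and 508 higher, 437 lower and 620 higher, and 425 lower and 679 higher. Without replicate 1 of the valproic acid combination the count there was also 12, and without replicate 2 of valproic acid alone 2 were called with that drug. When any 1 array was left out, the count in the valproic acid combination ran from 8 to 12. The small counts rest on single arrays. The 5 calls with panobinostat became 3 without control replicate 2, control replicate 3, panobinostat replicate 2 or panobinostat replicate 3, and 2 without panobinostat replicate 1. The 2 with valproic acid became 1 without replicate 1 or 3 of either group, and the 1 with decitabine became 3 without decitabine replicate 2. Against the single agents, 15 of the 48 were called for the panobinostat combination set beside decitabine (31.2%, against 15.6% of all genes) and 4 beside panobinostat (8.33%, against 9.55%). The former count became 6 without decitabine replicate 1, 7 without decitabine replicate 2 and 8 without replicate 3 of the combination. The latter became 1 without panobinostat replicate 2 or 3 or replicate 2 of the combination, and 2 without its replicate 3. A second quantile normalization took the split beside decitabine from 13 lower and 2 higher to 8 lower and 3 higher. Beside panobinostat it went from 2 lower and 2 higher to 0 lower and 3 higher. Over all genes the split beside decitabine went from 1177 lower and 1140 higher to 1000 lower and 1166 higher. Beside panobinostat that of all genes went from 615 lower and 806 higher to 553 lower and 798 higher. For the valproic acid combination the counts were 6 beside decitabine (12.5%, against 6.13%) and 1 beside valproic acid (2.08%, against 4.03%). The 6 became 2, 0 and 1 without decitabine replicate 1, 2 and 3, and 0 and 1 without replicate 2 and 3 of the combination. The 1 was lost without its replicate 1 or any array of valproic acid. No listed gene was called by limma between the inhibitors alone (0.121% of all genes) or between the combinations (0.652%), where 6 each had an unadjusted p under 0.05. None was called in an interaction either (0.625% of all genes with panobinostat and 0.0605% with valproic acid), where 2 and 3 had an unadjusted p under 0.05. The share of all genes at that unadjusted bound was not counted, so nothing is read from the unadjusted counts.

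Among the partners of KAT2A, TADA2A fell in all 4 groups with an inhibitor. TADA2A, an adaptor that holds KAT2A in ATAC, read 9.76, 9.66 and 9.62 in the controls and 8.89, 8.87 and 8.92 in the panobinostat combination, a change of -0.79 (SE 0.10, adjusted p 4.17e-05 in limma). It fell by 0.47 with panobinostat (adjusted p 0.0106 in limma), by 0.50 with valproic acid (adjusted p 0.00771, and 0.0581 in a fit of those 6 arrays alone, where the alternatives ran from 0.00551 to that value) and by 0.58 in the valproic acid combination (adjusted p 0.00116). KAT14, the other acetyltransferase of ATAC, fell by 0.86 in the panobinostat combination (SE 0.16, adjusted p 0.000655 in limma). Its change of -0.58 with panobinostat (adjusted p 0.0331) lost its call in 8 of 16 alternatives (0.0175 to 0.157), among them without control replicate 1 or 2 or panobinostat replicate 1 or 2. MBIP, a structural subunit of ATAC, fell by 1.04 in the panobinostat combination (SE 0.25, adjusted p 0.00563 in limma). In all, 3 of 8 measured ATAC genes fell in that group and none rose (37.5% and 0%, against 12% and 11.2% of all genes). In the valproic acid combination 1 of the 8 fell and none rose (12.5% and 0%, against 8.06% and 8.9% of all genes).

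Of 13 measured SAGA genes 4 fell in the panobinostat combination (30.8%, against 12% of all genes) and 3 in the valproic acid combination (23.1%, against 8.06%). None rose in either, against 11.2% and 8.9% of all genes. SUPT3H, a histone-fold subunit of the SAGA core, was the 1 listed gene that fell with decitabine alone, by 0.82 (SE 0.15, adjusted p 0.00373 in limma). It went from 8.14 on average in the controls to 7.32 with decitabine and 7.34 in the valproic acid combination (change -0.80, adjusted p 0.00132). In the panobinostat combination the change was -0.54 (adjusted p 0.0134), and 0.0568 without control replicate 1, where its alternatives ran from 0.00123 to that value. TADA1 fell by 0.85 in the valproic acid combination (adjusted p 0.0236 in limma, from 0.00825 to 0.118 over the alternatives). That call was lost without control replicate 2 or 3 or treated replicate 1 or 2. ATXN7 and ATXN7L2, of the deubiquitinating part of SAGA, changed by -0.53 and -0.56 in the panobinostat combination (adjusted p 0.0319 and 0.025 in limma). The call of ATXN7 was lost in 5 of 16 alternatives (0.00536 to 0.132), among them without control replicate 1 or 2 or treated replicate 1 or 3. That of ATXN7L2 was lost in 4 (0.00429 to 0.139), among them without control replicate 3 or treated replicate 2, where the change was -0.37. TADA3, shared by SAGA and ATAC, rose with panobinostat by 0.42 (adjusted p 0.0233 in limma, from 0.0174 to 0.102). Its call was lost with array medians set equal, in a fit of those arrays alone, and without control replicate 2 or 3 or any of the panobinostat replicates.

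Among 4 measured genes of the KAT7 complex, MEAF6 alone was called with panobinostat (25%, against 7.39% of all genes in either direction). It fell by 0.51 (SE 0.13, adjusted p 0.0179 in limma). Without replicate 1 or 3 of either group this call was lost (alternatives from 0.0089 to 0.0731). In the panobinostat combination MEAF6 was not called against control (-0.24, adjusted p 0.2 in limma), and its arrays overlapped the controls. Unlike JADE2, MEAF6 was higher there than with panobinostat alone (9.52 against 9.25), without overlap. That difference of 0.27 did not pass the test (adjusted p 0.218 in limma). KAT7, the catalytic subunit, named here after its values were seen, did not pass against control in any treatment, with changes from -0.50 with panobinostat to 0.34 with decitabine. In the NuRD list 2 of 11 genes fell in the panobinostat combination (18.2%, against 12% of all genes) and 1 in the valproic acid combination (9.09%, against 8.06%), shares near those of all genes. None was called with the single agents, where 2 reached an unadjusted p under 0.05 with panobinostat, 3 with valproic acid and 1 with decitabine in limma. The share of all genes at that unadjusted bound was not counted, so nothing is read from these numbers. GATAD2A, which links the ATPase to the rest of NuRD, fell by 0.71 and 0.72 in the combinations (SE 0.15, adjusted p 0.00236 and 0.00333 in limma). HDAC2 fell by 0.69 in the panobinostat combination (adjusted p 0.0193 in limma, from 0.00203 to 0.101), a call lost in a fit of those arrays alone and without control replicate 2 or 3 or treated replicate 1 or 3. It has 2 probe sets, with mean levels of 7.963 and 4.384. The former was used and is annotated to a non-coding transcript of the gene. The call was kept with the mean of both probe sets. HDAC1 stood 0.18 and 0.22 above control in the combinations, without passing the test.

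Other acetyltransferases and CHD remodellers moved in both directions. In the panobinostat combination 12% of all genes fell and 11.2% rose, and in the valproic acid combination 8.06% and 8.9%. Of 11 other acetyltransferases 2 fell and 2 rose in the former (18.2% each), and 1 fell and 1 rose in the latter (9.09% each). Of 9 other CHD genes 2 fell and 1 rose in the former (22.2% and 11.1%), and 3 and 1 in the latter (33.3% and 11.1%). KAT8, the acetyltransferase of MSL and NSL complexes, fell by 1.07 in the panobinostat combination (SE 0.20, adjusted p 0.000786 in limma) and by 0.74 in the valproic acid combination (adjusted p 0.0165, from 0.00375 to 0.0661). The second call was lost without control replicate 1 or 3 or treated replicate 2 or 3. EP300, a coactivator acetyltransferase, rose by 0.38 in the panobinostat combination (adjusted p 0.0217 in limma, from 0.00493 to 0.167), and NCOA1, a nuclear receptor coactivator, by 0.48 and 0.54 in the combinations (adjusted p 0.0209, from 0.00266 to 0.108, and 0.014, from 0.00464 to 0.0798). With array medians set equal none of these 3 rises was called. The call of EP300 was also lost in a fit of those arrays alone and without control replicate 1 or treated replicate 2 or 3. Those of NCOA1 were lost in the same kind of fit and without control replicate 1 or 2 or treated replicate 2 or 3 in the former combination, and without control replicate 1 or treated replicate 3 in the latter.

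CHD7, a remodeller of another CHD subfamily, rose in the 4 groups with an inhibitor, where CHD3 was lower. It read 3.35, 3.66 and 3.45 in the controls, below the median of all values, and 4.32, 4.87 and 4.84 with panobinostat. The rise was 1.19 (SE 0.15, adjusted p 0.000134 in limma) with panobinostat and 1.19 in the panobinostat combination (adjusted p 3.08e-05). In the valproic acid combination it was 0.62 (adjusted p 0.00938). With valproic acid alone it was also 0.62 (adjusted p 0.0208, from 0.0186 to 0.106), a call lost without replicate 1 or 3 of either group. CHD1L, a PARP-activated remodeller, fell by 0.80 and 0.68 in the combinations (adjusted p 0.000601 and 0.00352 in limma). CHD1 fell by 0.34 in the panobinostat combination (adjusted p 0.0258 in limma, from 0.0021 to 0.126) and by 0.44 in the valproic acid combination (adjusted p 0.0075, from 0.00096 to 0.0524). The former call was lost without control replicate 2 or 3 or treated replicate 1 and after a second quantile normalization, and both were lost in fits of the compared arrays alone. CHD2 fell by 0.57 in the valproic acid combination (adjusted p 0.0249 in limma, from 0.00467 to 0.11), a call lost without control replicate 2 or 3 or treated replicate 2 or 3.

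Most named calls of the groups with valproic acid also passed without the array nearest to control. That array was picked over the genes called in the same comparison, so most changes can grow without it. Passing in this setting is therefore no support for the calls. In the combination, those of JADE1, KAT8, CHD2, NCOA1 and TADA1 were lost without certain other arrays, as given above. In the combination without replicate 1, limma gave changes of -0.66 for SUPT3H, -0.64 for TADA2A, -0.73 for GATAD2A and -0.87 for KAT8. It gave -0.78 for CHD1L, -0.49 for CHD1, -0.63 for CHD2, 0.61 for NCOA1 and 0.67 for CHD7. All these passed, as did JADE1, with adjusted p between 0.00106 and 0.03, while TADA1 at -0.82 did not (adjusted p 0.0578). For valproic acid alone without replicate 2, TADA2A stood at -0.56 and CHD7 at 0.70, and both passed (adjusted p 0.0106 and 0.0219 in limma).

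**Figure D4:**
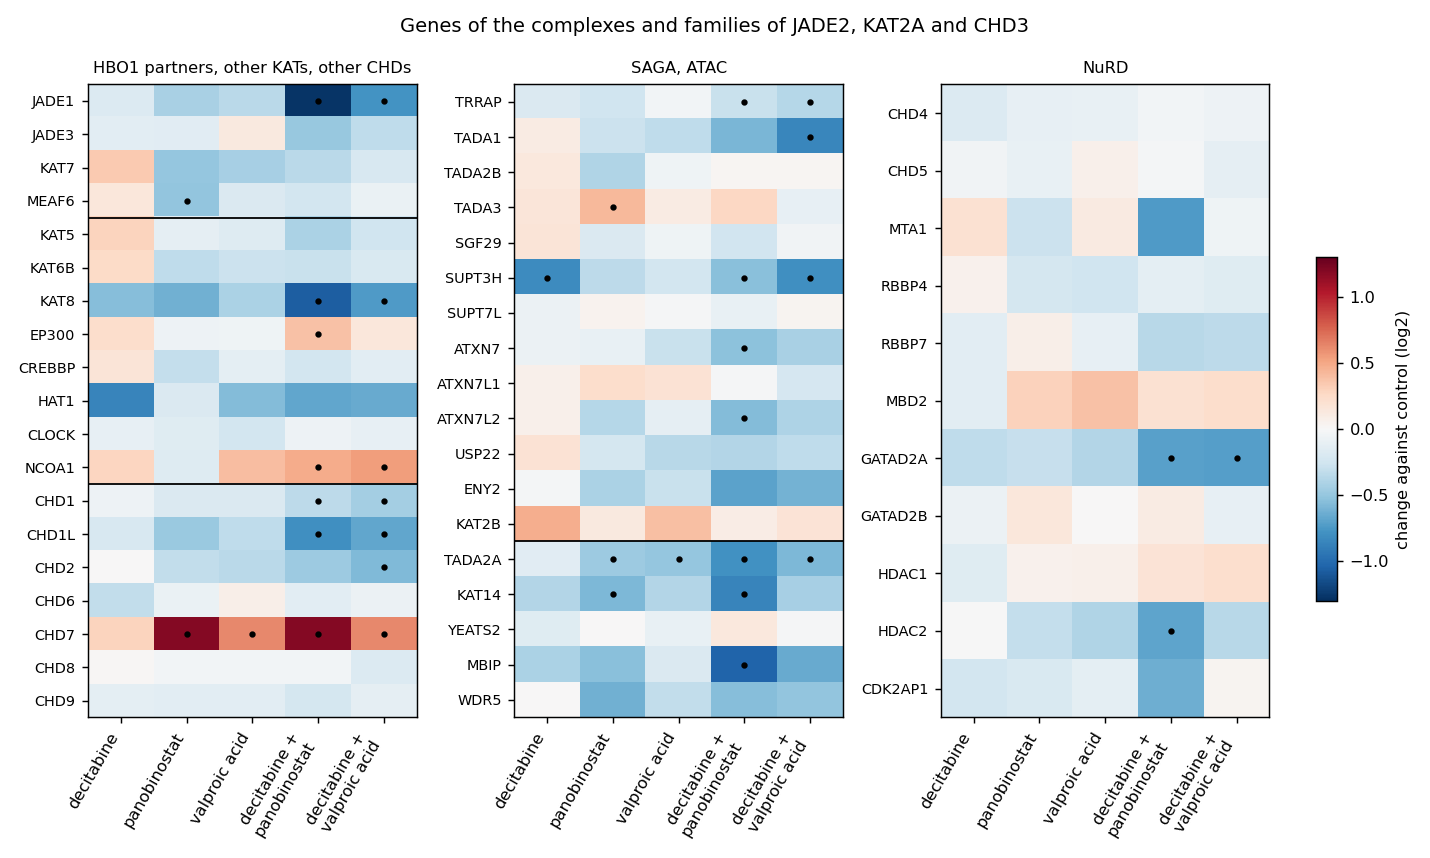
Change against control (log2, colour, limited to 1.3 either way) of the 48 measured genes of the complexes and families, each shown once, in the 5 treatments; a dot marks an adjusted p under 0.05. The dots gather in the combinations, 16 with panobinostat and 12 with valproic acid, and are mostly blue, with CHD7 as the strongest red.

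The pattern of each gene over the 18 arrays was compared by Pearson's r with 5469 protein-coding genes whose group means span at least 0.5. These correlations are a description, since the points share 6 groups and all comparisons run on the same arrays. JADE2 and CHD3 correlated at 0.948, KAT2A and CHD3 at 0.898, and JADE2 and KAT2A at 0.80. The genes most like JADE2 were RANBP1, a regulator of nuclear transport (r = 0.971), ERLIN1, an endoplasmic reticulum membrane protein (0.968), MRPS15, a mitochondrial ribosomal protein (0.958), DDX21, an RNA helicase of ribosome production (0.956), and CHD3. RANBP1 went from 10.88 in control to 10.08 and 10.25 in the combinations, a narrower range than that of JADE2. Running opposite to JADE2 were SHFL, an interferon-induced antiviral protein (-0.944), TMEM145 (-0.939) and KIAA0513 (-0.936).

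KAT2A was most like TIMM44, of the mitochondrial protein import motor (r = 0.956), MPO, the myeloperoxidase of granulocyte precursors (0.953), GEMIN4, of the SMN complex (0.95), TTC27 (0.945) and MRM3, a methyltransferase of mitochondrial ribosomal RNA (0.943). Like KAT2A, MPO was near control with decitabine (12.31 against 12.28) and lower with panobinostat and valproic acid (11.55 and 11.49). Opposite were HEG1, a receptor of endothelial junctions (-0.961), the metalloprotease ADAM28 (-0.955) and FFAR2, a receptor for short-chain fatty acids (-0.954). CHD3 was most like MRTO4, a factor of ribosome assembly (0.965), ACACA, acetyl-CoA carboxylase (0.964), SFXN4, a mitochondrial protein (0.959), TTC27 (0.959) and DDX21 (0.959). ACACA went from 9.03 in control to 8.05 and 7.94 with the inhibitors and 7.27 and 7.68 in the combinations. Opposite to CHD3 were ENPP2, the lysophospholipase autotaxin (-0.968), RGS9 (-0.962) and EML4 (-0.952). The order depends on the measure: by Spearman's rho TIMM44 ranked 55 and MPO 36 for KAT2A, and SFXN4 138 for CHD3, while RANBP1 ranked 10 for JADE2. Values of r over 0.9 were reached by 49 genes for JADE2, 36 for KAT2A and 92 for CHD3.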

How the data were processed

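RNA of 18 U937 samples in 6 groups of 3 was measured on Affymetrix arrays. The authors deposited log2 values. The submitters' processing notes name RMA, which corrects background, equalises the distributions of arrays and summarises probes, and give no version. Of 48226 probe sets, 16098 had 1 symbol in the array annotation, and all 16098 matched RefSeq by gene identifier. The probe set with the highest mean stood for a gene, which left 14884 genes, none removed for a low level. limma 3.58.1 in R 4.3.3 fitted 1 mean per group with 12 residual degrees of freedom and moderated variances; calls have a Benjamini-Hochberg adjusted p under 0.05 over all genes. The code was tested on simulated data. The 3 genes, the lists and the comparisons were chosen with earlier results of these data known. Named are the 3 genes, their relatives, HDAC1 and HDAC2, up to 4 called genes per list with the largest change against control, and the 5 most and 3 least correlated genes of each. Alternatives changed the arrays in the fit, replicate block, probe set, scaling, filter, prior variance and genes tested, and left out each array. Of the 73 listed genes, 25 were on no named probe set and not analysed here, and protein sequences were not used here.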

Additional observations from a re-analysis of the deposited data

How the results depend on the processing

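All values of JADE2, KAT2A and CHD3 against control stayed below 0 under every alternative run. 4 moved by more than the spread of replicates when array medians over named genes were set equal: JADE2 to -0.58 with decitabine and -3.18 in the panobinostat combination, and in the latter KAT2A to -1.66 and CHD3 to -2.02. The difference of JADE2 from the sum of single changes with panobinostat (-1.07) ran from -1.29 to -0.88 when 1 array was left out. The same scaling took the number of called partner genes from 5 to 8 with panobinostat, from 16 to 30 and from 12 to 20 in the combinations with panobinostat and valproic acid, and from 1 to 2 for the valproic acid combination against valproic acid. Over all genes the share called went from 7.39% to 8.47% with panobinostat under this scaling. It went from 23.2% to 30.2% and from 17% to 24% in those combinations, and from 4.03% to 4.86% against valproic acid. The partner count against valproic acid was 0 in a fit of the compared arrays, after a second quantile normalization and with a trend in the prior variance. With compared arrays alone the count was 1 in place of 2 with valproic acid, 1 in place of 4 for the panobinostat combination against panobinostat, and 0 in place of 6 for the valproic acid combination against decitabine. A trend in the prior variance gave 4 with valproic acid. Leaving out 1 array gave 1 to 3 calls with decitabine, 2 to 5 with panobinostat, 1 to 2 with valproic acid, 6 to 11 in place of 15 for the panobinostat combination against decitabine, 1 to 3 against panobinostat, and 0 to 8 and 0 to 1 for the valproic acid combination against decitabine and against valproic acid. The cause of these shifts was not tested.

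Arrays with the same replicate number deviated from their group means with correlations from -0.108 to 0.104 over 45 pairs of arrays, so the numbers were not taken as pairs. With the replicate block the partner genes called were 1, 5, 2, 17 and 13 in the 5 treatments, in place of 1, 5, 2, 16 and 12. Of the named partner changes against control, KAT14 with panobinostat lost its call under the block. Of 48 correlations recomputed by Spearman's rho or over group means, 8 moved by 0.05 or more and none changed sign. No detection calls were used, so whether CHD5, and CHD7 in the controls, stood above background was not tested.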

Other observations

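Within groups, the 3 genes deviated together to different degrees. After removing group means, KAT2A and CHD3 correlated at 0.607 over the 18 arrays, JADE2 and CHD3 at 0.377 and JADE2 and KAT2A at 0.202, as a description without a test. In the valproic acid combination, replicate 1 was the highest array for each of them (5.24, 8.07 and 8.12), and in valproic acid alone replicate 2 was (6.54, 7.74 and 8.35). These are the arrays that lay nearest to control over all genes called in their groups.

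Compared with decitabine alone rather than control, HDAC1 rose in both combinations, by 0.34 with panobinostat (SE 0.10, adjusted p 0.0302 in limma, from 0.00642 to 0.111 over 16 alternatives) and by 0.38 with valproic acid (adjusted p 0.037 in limma, from 0.00845 to 0.152). The former call was lost in 7 of the alternatives and the latter in 8. In both cases these included array medians set equal, a fit of the compared arrays alone, leaving out any of the 3 decitabine arrays, and leaving out replicate 2 or 3 of the combination. The latter was also lost with the replicate block.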
